A study of Mus musculus with 13 samples.

Results

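The 6 genes described here are the mouse SoxC and SoxD transcription factors, measured in sorted thymocytes of Sox4 conditional knockout and wild-type mice. Sox4, Sox11 and Sox12 are the SoxC genes, and Sox13, Sox5 and Sox6 are the SoxD genes. They were chosen by symbol, and all 6 were found among the 19752 genes measured. Each had 1 probe set annotated to it alone, so no choice between probe sets was needed.

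RNA from 13 samples was hybridised to 13 Affymetrix arrays, all from mice 2 weeks old. V2 cKO (4 arrays) and V2 WT (4 arrays) are immature γδ T cells of the thymus, sorted for Vγ2, for the δ chain of the receptor and for a high level of the immaturity marker HSA, with CD4 and CD8 cells left out. DP cKO (3 arrays) and DP WT (2 arrays) are CD4 and CD8 double positive thymocytes, precursors of αβ T cells. cKO is the Sox4 conditional knockout and WT is wild type, in each case by the sample's title. V2 titles are written in 2 ways, called V2imm and immV2 here, with 2 cKO and 2 WT arrays each, and the V2imm titles say only KO. No source used here gives the Cre line, the deleted stretch of Sox4 or the number of animals per sample, and sex is labelled as mixed. Since the labels do not tie replicates to separate animals, a p-value covers the spread among these samples alone, and that spread may be technical.

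Sox proteins bind DNA through an HMG box. SoxC proteins carry a transactivation domain at the C terminus and act in progenitor cells of many tissues, and Sox4 is the member known for its roles in early B and T lymphocytes. SoxD proteins have no known transactivation domain, pair through a coiled coil and modify the action of other factors. Sox13 is a long-known marker of γδ thymocytes, which can oppose TCF1, and Sox4 and Sox13 are both known to be needed for γδ T cells that make IL-17. Sox5 and Sox6 are best known from cartilage, where they work with Sox9, and Sox6 also from red cell maturation.

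In 2 arrays, marker genes that are no members read as in the other population, and these arrays are shown apart. On the log2 scale, Cd4 was 7.47 and Rag1, a recombinase gene, 6.87 in the array labelled DP cKO replicate 5, where Cpa3, a carboxypeptidase gene high in the V2 arrays, was 12.69. In the array labelled V2 WT replicate 5 (immV2), Cd4 was 12.65, Rag1 13.02 and Cpa3 5.39. In the other arrays Cd4 ran from 6.71 to 7.36 in V2 and from 12.36 to 12.62 in DP. No array was moved to another group. Results are given over 11 arrays, which are 4 V2 cKO, 3 V2 WT, 2 DP cKO and 2 DP WT arrays, and beside them over the 13 arrays as labelled. Array medians ran from 6.93 to 7.10 and lower quartiles from 5.72 to 6.09 in log2 intensity. Precision is limited by how few arrays there are. Xist and the Y-linked gene Eif2s3y were both above 8 in 3 of the 7 V2 arrays kept, all of them in V2imm, and DP WT replicate 5 was the only kept array with Eif2s3y near background (4.56).

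The promoter windows of 4 members are printed first. Sox13, Sox5 and Sox12 are shown because they were the members higher in V2 WT than in DP WT, and Sox4 because it is the gene named in the knockout. Each window runs from 250 bases before to 50 after a RefSeq start site (GRCm38.p6) and is read 5′ to 3′ on the minus strand, which is the strand of all 4 genes. Capitals mark the SOX core ACAAT and the E-box CANNTG, searched on both strands.

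Sox13, chr1:133424163-133424462: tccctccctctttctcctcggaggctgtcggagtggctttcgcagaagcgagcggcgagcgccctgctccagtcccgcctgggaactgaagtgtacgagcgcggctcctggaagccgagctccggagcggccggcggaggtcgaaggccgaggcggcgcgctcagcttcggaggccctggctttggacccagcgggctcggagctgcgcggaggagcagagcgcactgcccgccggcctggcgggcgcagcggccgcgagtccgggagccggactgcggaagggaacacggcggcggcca
Sox5, chr6:143947057-143947356: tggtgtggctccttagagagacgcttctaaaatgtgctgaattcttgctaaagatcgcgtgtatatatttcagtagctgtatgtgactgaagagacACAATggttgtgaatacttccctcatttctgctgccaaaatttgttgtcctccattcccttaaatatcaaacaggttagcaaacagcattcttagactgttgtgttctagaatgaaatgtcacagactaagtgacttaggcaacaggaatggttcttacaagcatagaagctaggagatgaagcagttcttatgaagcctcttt
Sox12, chr2:152397997-152398296: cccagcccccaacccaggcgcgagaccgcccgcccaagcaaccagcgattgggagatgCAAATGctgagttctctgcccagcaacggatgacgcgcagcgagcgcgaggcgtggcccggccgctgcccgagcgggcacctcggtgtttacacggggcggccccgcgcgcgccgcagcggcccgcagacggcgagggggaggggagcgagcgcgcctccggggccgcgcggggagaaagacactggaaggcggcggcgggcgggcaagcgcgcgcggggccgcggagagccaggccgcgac
Sox4, chr13:28953650-28953949: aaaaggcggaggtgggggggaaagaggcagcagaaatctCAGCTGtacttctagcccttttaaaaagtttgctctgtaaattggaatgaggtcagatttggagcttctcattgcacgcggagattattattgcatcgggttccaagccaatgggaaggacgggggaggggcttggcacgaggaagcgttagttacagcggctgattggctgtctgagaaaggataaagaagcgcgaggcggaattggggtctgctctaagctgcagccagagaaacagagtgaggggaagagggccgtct

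The 3 windows of the genes that were higher in V2 do not share a base composition. Sox13 and Sox12 have GC contents of 73.3% and 76.7% with 40 and 47 CpG sites, above the upper quartile of all 32851 mouse windows (61.7% and 20). Sox5 has 39.7% GC and 3 CpG sites, at or below the lower quartile (45.7% and 3). Sox4 has 52% GC and 12 CpG sites. The SOX core was found once in the Sox5 window and in none of the other 3, and 31% of all windows hold it. The E-box was found once each in the Sox12 and Sox4 windows, and 72.3% of all windows hold it. The TCF/LEF-type core ACAAAG was found in none of the 4 and in 18.7% of all windows. Sox6 has 6 windows in the table and Sox11 has 1, which are not printed because neither gene was called in any comparison. These matches describe letters in 1 window per gene and say nothing of binding.

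**Figure D1:**
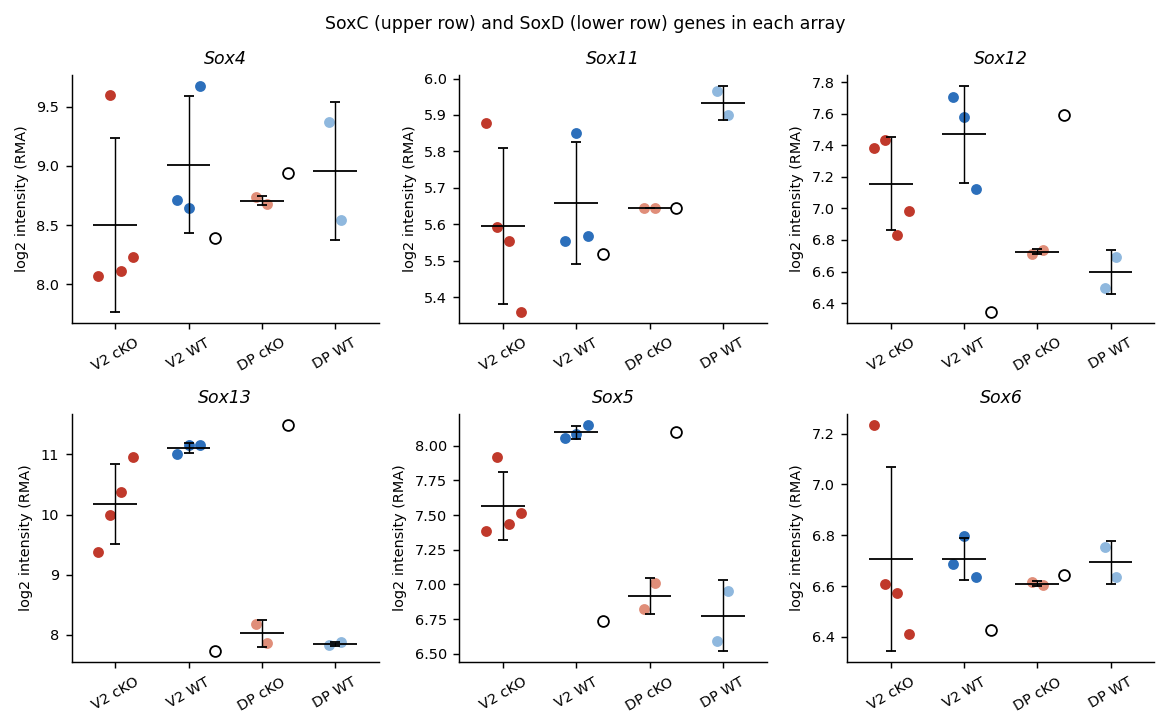
Log2 RMA intensity of each gene (vertical axes, each with its own range, not starting at 0) in V2 cKO, V2 WT, DP cKO and DP WT. Filled points are the 11 arrays kept, lines and bars their mean ± SD, and open circles the 2 arrays shown apart. Sox13 and Sox5 lie lower in all 4 V2 cKO arrays than in the 3 V2 WT arrays, as 1.76% of all genes do. They lie lowest in the DP arrays kept, while Sox4 overlaps in all groups.

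Sox4, the gene named in the knockout, comes first. Its log2 intensity was 8.07 and 9.60 in V2 cKO (replicates 4 and 5, V2imm) and 8.11 and 8.23 in V2 cKO (replicates 3 and 4, immV2), against 8.71 and 8.64 in V2 WT (replicates 4 and 5, V2imm) and 9.68 in V2 WT (replicate 3, immV2). It was 8.74 and 8.68 in DP cKO, against 9.37 and 8.55 in DP WT. So 3 of the 4 V2 cKO arrays lay below every V2 WT array, while V2 cKO replicate 5 (V2imm) was above 2 of the 3, and both DP cKO arrays lay between the DP WT arrays. Sox4 was above the array median on all 13 arrays, those labelled cKO included. The V2 cKO readings of 8.07, 8.11 and 8.23 lay below the 8.54 that other Sox genes reached over the 11 arrays. They are thus not shown to be above background.

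With limma over all genes, Sox4 differed by -0.51 on the log2 scale between V2 cKO and V2 WT (SE 0.38, 95% CI -1.32 to 0.31, adjusted p = 0.999) and by -0.25 between DP cKO and DP WT (SE 0.49, 95% CI -1.30 to 0.80, adjusted p = 1). Neither passed the threshold of 0.05, and both intervals include a fall of more than 1 log2 unit. In the 13 arrays as labelled the differences were -0.35 (SE 0.36) in V2 and -0.17 (SE 0.46) in DP. The 2 title sets did not give the same picture: Sox4 differed by 0.16 (SE 0.40) within V2imm and by -1.51 (SE 0.50, adjusted p = 0.961) within immV2, which has 1 WT array. The test of the difference between the sets did not pass either (1.66, SE 0.64, adjusted p = 0.99992), in a comparison where 0.00506% of genes were called. No source used here tells whether the Sox4 probe set lies inside the deleted stretch, so these levels are no check of the labels.

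Sox13 was the member with the widest range, 3.34 log2 units over the 11 arrays. Its log2 intensity was 9.38 and 9.99 in V2 cKO (replicates 4 and 5, V2imm) and 10.37 and 10.96 in V2 cKO (replicates 3 and 4, immV2), against 11.01, 11.15 and 11.16 in V2 WT. In DP cells it was 8.18 and 7.87 in DP cKO, against 7.83 and 7.88 in DP WT. All 4 V2 cKO arrays lay below all 3 V2 WT arrays, by 0.05 at the closest, as for 1.76% of all genes. The V2 WT arrays lay above both DP WT arrays, as for 14.4% of all genes. The V2 cKO arrays lay above both DP cKO arrays kept, as for 9.8%. The V2 WT arrays were close together (11.11 ± 0.09, SD, n = 3) and the V2 cKO arrays were spread (10.18 ± 0.66, SD, n = 4).

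Sox5, a SoxD gene better known from cartilage, had the same order of groups at a smaller scale. Its log2 intensity was 7.38 and 7.92 in V2 cKO (V2imm) and 7.44 and 7.51 in V2 cKO (immV2), against 8.06, 8.08 and 8.15 in V2 WT. In DP cells it was 6.82 and 7.01 in DP cKO, against 6.59 and 6.96 in DP WT. The V2 cKO arrays again all lay below the V2 WT arrays, by 0.14 at the closest, as for 1.76% of all genes, and DP cKO and DP WT overlapped. DP levels of Sox5 lay near or below the array median and are not shown to be above background, so a difference from them may be understated. Its V2 cKO readings also lay below the 8.54 that other Sox genes reached over the 11 arrays, and are not shown to be above background either.

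Sox12, a SoxC gene, read 7.38 and 7.43 in V2 cKO (V2imm) and 6.83 and 6.98 in V2 cKO (immV2), against 7.71 and 7.58 in V2 WT (V2imm) and 7.12 in V2 WT (immV2). It read 6.71 and 6.74 in DP cKO, against 6.50 and 6.69 in DP WT. V2 cKO and V2 WT overlapped when the title sets were put together. Each of the 3 V2 WT arrays was above both DP WT arrays, as for 14.4% of all genes. Each of the 4 V2 cKO arrays was above both DP cKO arrays kept, as for 9.8% of all genes.

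Sox11, a SoxC gene best known from the developing nervous system, and Sox6, the SoxD gene of red cell maturation, lay low on most arrays. Sox11 ran from 5.36 to 5.88 in V2 cKO, 5.56 to 5.85 in V2 WT and 5.90 to 5.97 in DP WT, and lay below the lower quartile on 11 of 13 arrays. All 3 arrays labelled DP cKO held the same Sox11 value, 5.64, and such ties are common at this level: 29.7% of genes with a mean under 6 had 1 value on 3 or more arrays. Sox6 ran from 6.41 to 7.23 in V2 cKO, 6.64 to 6.80 in V2 WT, 6.60 to 6.62 in DP cKO and 6.63 to 6.75 in DP WT, and lay below the array median on 12 of 13 arrays. Neither gene is shown to be above background, and their groups differed by little.

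**Figure D2:**
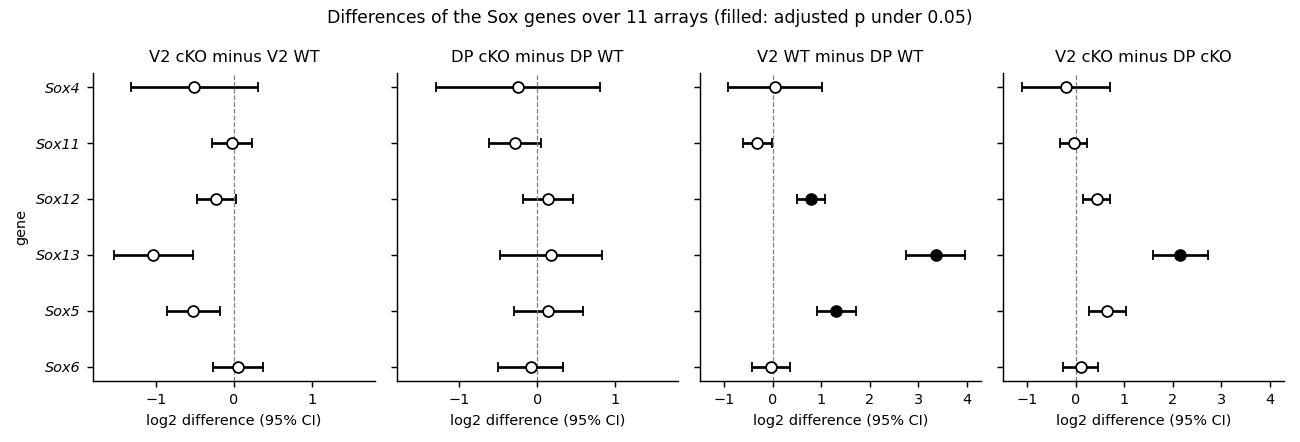
Log2 difference of each gene with its 95% confidence interval from limma over 11 arrays (horizontal axes; the 2 left panels span a smaller range than the 2 right ones). Filled points passed an adjusted p of 0.05. Sox13, Sox5 and Sox12 passed for V2 WT minus DP WT, Sox13 alone for V2 cKO minus DP cKO, and no gene for either cKO minus WT comparison.

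Between the populations in wild type, 3 of the 6 members were higher in V2 WT than in DP WT and 3 did not pass. Over all genes 3.2% were called higher and 1.67% lower. Sox13 was 10.3-fold higher (log2 difference 3.36, SE 0.28, adjusted p = 7.30e-06), Sox5 was 2.48-fold higher (1.31, SE 0.19, adjusted p = 8.20e-04) and Sox12 was 1.73-fold higher (0.79, SE 0.14, adjusted p = 0.00338). None of these 3 genes is shown to be above background in DP WT, so all 3 folds may be understated. Sox13 read 7.83 and 7.88 there, and Sox genes other than the 6 members read up to 8.54 over the 11 arrays. Sox13, Sox5 and Sox12 were each higher in 3 of 3 V2 WT arrays than in both DP WT arrays, as were 14.4% of all genes. Sox4 differed by 0.05 (SE 0.45, 95% CI -0.92 to 1.02), and by -0.04 after quantile normalization, Sox11 by -0.31 (SE 0.14, adjusted p = 0.336) and Sox6 by -0.04 (SE 0.18). The Sox4 interval leaves room for a change of nearly 1 log2 unit either way. In the 13 arrays as labelled none of the 6 passed with limma (0.0557% of genes called), and 4 had an unadjusted p under 0.05, as 8.46% of all genes did, with Sox13 at 2.41 (SE 1.04), Sox5 at 0.98 (SE 0.38) and Sox12 at 0.59 (SE 0.25). The Sox12 call ended without DP WT replicate 3 (0.69, adjusted p = 0.0702) and without the title set term (0.87, adjusted p = 0.0523). In bulk samples fewer cells that express a gene and less RNA per cell cannot be told apart.

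The arrays labelled cKO give the same comparison in other samples. Sox13 was 4.44-fold higher in V2 cKO than in DP cKO (log2 difference 2.15, SE 0.26, adjusted p = 2.14e-04). Sox13 is not shown to be above background in DP cKO, so this fold may be understated. It was the only member called, where 3.5% of all genes were called higher. Sox5 differed by 0.65 (SE 0.18, adjusted p = 0.0514) and Sox12 by 0.43 (SE 0.13, adjusted p = 0.0781), both with 4 of 4 V2 cKO arrays above both DP cKO arrays, as for 9.8% of all genes. Without V2 cKO replicate 4 (V2imm) both passed, Sox5 at 0.74 (adjusted p = 0.0137) and Sox12 at 0.45 (adjusted p = 0.0487). Sox4 (-0.20, SE 0.42), Sox11 (-0.05, SE 0.13) and Sox6 (0.10, SE 0.17) did not pass. Of 10 skeletal muscle markers, 8 were called lower in V2 cKO than in DP cKO (median log2 difference -1.13), where 1.94% of all genes were. The part of muscle RNA in the DP cKO readings of Sox genes was not tested. In the 13 arrays as labelled Sox13 was at 0.996 (SE 0.92, adjusted p = 0.836) and no member passed with limma (0.0354% of genes called). None had an unadjusted p under 0.05 there, as 8.45% of all genes did.

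In V2 cells no member passed the test between cKO and WT, and neither did any other gene (0% called with limma). At an unadjusted p under 0.05 there were 2 of 6 members, Sox13 and Sox5, and 3.83% of all genes. Sox13 differed by -1.04 (SE 0.23, 95% CI -1.54 to -0.53, adjusted p = 0.265), which is 2.05-fold lower in V2 cKO. Sox5 differed by -0.52 (SE 0.16, 95% CI -0.86 to -0.18, adjusted p = 0.729), or 1.43-fold lower. Both had all V2 cKO arrays below all V2 WT arrays, as did 1.76% of all genes. Sox12 differed by -0.23 (SE 0.11, adjusted p = 0.999), Sox11 by -0.02 (SE 0.12) and Sox6 by 0.05 (SE 0.15). Readings of Sox5 and Sox12 in V2 cKO are not shown to be above background, so their differences may be understated. The median over the 6 members was -0.37, beside 0.01 over all genes. These 6 include Sox4 itself (-0.51), the gene named in the knockout. With arrays weighted by their fit, 3 members were called lower in V2 cKO, Sox4 (-1.32), Sox13 (-0.52) and Sox5 (-0.64), among 2680 genes called. In the 13 arrays as labelled, where the array labelled V2 WT replicate 5 (immV2) brings its Sox13 of 7.73 and Sox5 of 6.74 into V2 WT, the differences were -0.09 (SE 0.85) for Sox13 and -0.19 (SE 0.31) for Sox5.

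**Figure D3:**
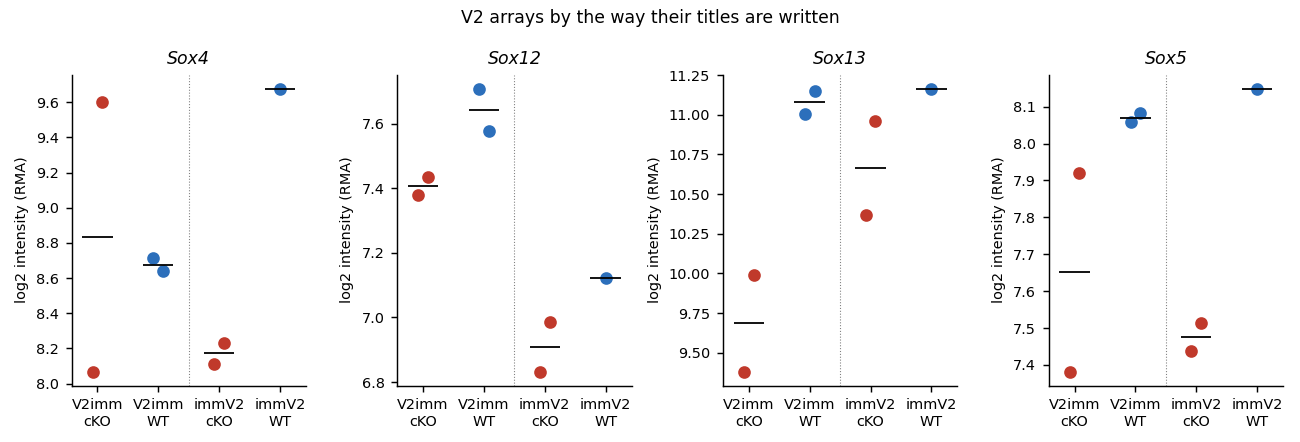
Log2 RMA intensity (vertical axes, each with its own range) of 4 genes in the 7 V2 arrays kept, by title set and label, with a line at each mean. Sox13 and Sox5 are lower in cKO in both sets, Sox12 differs between the sets as well, and Sox4 is lower in both cKO arrays of immV2 only.

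The title sets were also read apart. Sox13 differed between cKO and WT by -1.39 (SE 0.27, adjusted p = 0.325) within V2imm and by -0.50 (SE 0.33, adjusted p = 1) within immV2. Sox5 differed by -0.42 (SE 0.21) within V2imm and by -0.67 (SE 0.26) within immV2, and Sox12 by -0.24 (SE 0.16) and -0.21 (SE 0.19). No member passed in either set (0.0253% and 0.0456% of genes called), and no member's effect was shown to differ between the sets. Over both labels Sox12 was at a log2 difference of 0.51 between V2imm and immV2 (SE 0.12, adjusted p = 0.0687), in a comparison that called 1.83% of genes. Cd74, a gene of antigen-presenting cells, was 8.19 to 10.98 in V2imm and 6.19 to 7.77 in the immV2 arrays kept. The part of such cells in the Sox12 readings was not tested.

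**Figure D4:**
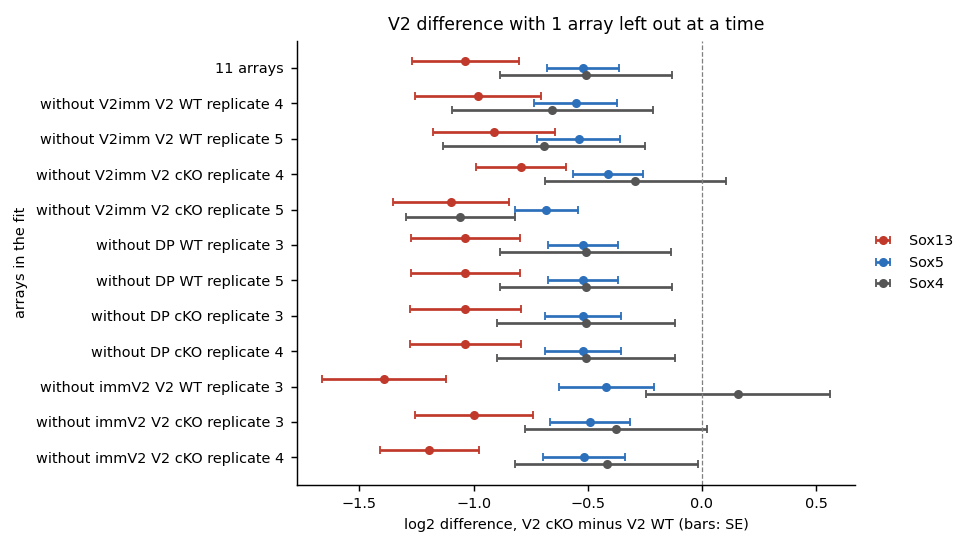
Log2 difference between V2 cKO and V2 WT (horizontal axis, bars are SE) for Sox13, Sox5 and Sox4 over 11 arrays and with 1 array left out at a time. Sox13 stays between -1.39 and -0.79 and Sox5 between -0.68 and -0.41, while Sox4 runs from -1.06 to 0.16.

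With 1 array left out at a time, the V2 difference of Sox13 ran from -1.39 to -0.79 and that of Sox5 from -0.68 to -0.41, with neither gene called in these fits. For Sox4 it was -1.06 (SE 0.24, adjusted p = 0.100) without V2 cKO replicate 5 (V2imm) and 0.16 (SE 0.40) without V2 WT replicate 3 (immV2). Other measures also varied among the V2 arrays, and in each of those given next the ranges of cKO and WT overlapped. Cd24a encodes HSA, on which V2 cells were sorted, and was 12.31 and 11.61 in V2 cKO (V2imm) and 10.38 and 9.46 in V2 cKO (immV2), against 11.67 to 12.21 in V2 WT. All 12 macrophage and dendritic cell markers were above WT in V2 cKO (median log2 difference 0.20, none called), with summed intensities of 965 to 6469 in V2 cKO and 908 to 3337 in V2 WT. Stromal and epithelial markers, whose cells can express Sox genes, had 10 of 13 below WT (median -0.08), with summed intensities of 2610.5 to 3454 in V2 cKO and 3216 to 3450.5 in V2 WT. Their part in the Sox13 and Sox5 values was not tested.

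In DP cells 0 of 6 members passed between cKO and WT with limma, and 0.0253% of all genes were called. None of the 6 had an unadjusted p under 0.05, as 2.71% of all genes did. Sox13 differed by 0.17 (SE 0.30), Sox5 by 0.14 (SE 0.20), Sox12 by 0.13 (SE 0.15), Sox11 by -0.29 (SE 0.15) and Sox6 by -0.08 (SE 0.19). The 95% interval was -0.48 to 0.83 for Sox13 and -0.30 to 0.58 for Sox5, so a change of 1 log2 unit in these readings lies outside both. Neither gene is shown to be above background in DP cells, so a change may be understated. All 10 skeletal muscle markers were above WT in DP cKO (median log2 difference 0.83), with summed intensities of 2088 and 3279 in DP cKO and 1308 and 1786 in DP WT. The part of muscle RNA in the DP readings of Sox genes was not tested. In the 13 arrays as labelled, where the array labelled DP cKO replicate 5 brings its Sox13 of 11.49 into DP cKO, Sox13 was at 1.33 (SE 1.10, adjusted p = 1), and 1 of 6 members, Sox11 at -0.29, had an unadjusted p under 0.05, as 2.07% of all genes did.

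The effect of the cKO label in V2 minus that in DP was -1.21 for Sox13 (SE 0.38, 95% CI -2.03 to -0.38) and -0.66 for Sox5 (SE 0.26, 95% CI -1.22 to -0.11), both with an adjusted p of 0.99996. These 2 members were also the only ones of 6 at an unadjusted p under 0.05, where 1.88% of all genes were, and no gene passed over all genes (0% called with limma). Sox4 differed by -0.26 (SE 0.61), Sox12 by -0.36 (SE 0.19), Sox11 by 0.27 (SE 0.19) and Sox6 by 0.13 (SE 0.24). No member's effect is thus shown to differ between the populations.

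Other Sox genes and the partners of the family were read from lists. All 14 further Sox genes measured, Sox9 and Sox2 among them, had 0 called with limma in the comparisons over 11 arrays and 0 at an unadjusted p under 0.05. Over all genes, 0% were called between V2 cKO and V2 WT, 0.0253% between DP cKO and DP WT, and 3.2% higher and 1.67% lower between V2 WT and DP WT. Between V2 cKO and DP cKO 3.5% were called higher and 1.94% lower. An unadjusted p under 0.05 was held by 1.88% to 14.3% of all genes over these comparisons and the difference of effects. The 14 genes read between 5.04 and 8.54 and none ranged over more than 0.85 log2 units. Of the TCF/LEF factors, which share the HMG box, 3 of 4 were measured and Tcf7 was not analysed here. Lef1 averaged 12.0 ± 0.05 in V2 cKO (SD, n = 4), 12.2 ± 0.26 in V2 WT (SD, n = 3), 11.6 ± 0.08 in DP cKO (SD, n = 2) and 11.5 ± 0.61 in DP WT (SD, n = 2). Tcf7l2 was higher in V2 cKO than in DP cKO (log2 difference 0.74, SE 0.20, adjusted p = 0.0481), where 3.5% of all genes were called higher. It was the only call among these 3.

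The list for IL-17-producing γδ cells, which need Sox13, had 20 genes, of which 16 were measured. In V2 WT against DP WT 9 were higher, 0 lower and 7 did not pass (median log2 difference 1.03, beside -0.02 over all genes). Over all genes 3.2% were called higher and 1.67% lower there. The 9 called genes are the ones meant next. Among them were Etv5, an ETS factor gene (5.39, SE 0.23), Il7r, a survival cytokine receptor gene (3.97, SE 0.23), and Maf, a bZIP factor gene (4.87, SE 0.31). All 3 read below the array median in DP WT, so these differences may be understated. In the 13 arrays as labelled none of the 16 passed (0.0557% of all genes called), and 9 had an unadjusted p under 0.05, as 8.46% of all genes did. Between V2 cKO and V2 WT 0 of 16 passed with limma (0% of all genes called) and 6 had an unadjusted p under 0.05, as 3.83% of all genes did. In that comparison 12 of the 16 were below and 4 above WT (median -0.22, beside 0.01 over all genes). There Il17re, a gene of the IL-17 receptor family, came closest to the threshold at -1.08 (SE 0.16, adjusted p = 0.0572). Il17re averaged 7.21 in V2 cKO and 8.27 in V2 WT, beside 7.82 in DP cKO and 7.92 in DP WT. It was not called higher in V2 WT than in DP WT (0.37, SE 0.19), and is not shown to be above background. Blk, a Src-family kinase gene, differed by -1.35 (SE 0.33, adjusted p = 0.348), Maf by -1.14 (SE 0.26, adjusted p = 0.269) and Etv5 by -0.80 (SE 0.19, adjusted p = 0.315). Of 10 genes reported elsewhere as SoxC targets, Tead2, Ezh2 and Tubb3 among them, 0 passed with limma between cKO and WT in V2 (median -0.06) or in DP (median -0.14). Over all genes 0% and 0.0253% passed. At an unadjusted p under 0.05 there were 0 of the 10 in V2 and 2 in DP, beside 3.83% and 2.71% of all genes. A list of 8 cartilage genes linked to SoxD factors includes Sox9, already counted among the further Sox genes. Of the 8, 0 passed in any comparison over 11 arrays, where 0% to 5.45% of all genes passed. At most 1 of them had an unadjusted p under 0.05, beside 1.88% to 14.3% of all genes.

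The genes most like Sox4 and Sox13 were sought over the 7 V2 arrays kept, among 2552 genes with a mean of at least 7 and a range of at least 1 log2 unit. For Sox4 they were Usp22, a deubiquitinase gene (Pearson r = 0.97), Dnmt3a, a DNA methyltransferase gene (0.96), Afap1 (0.96), Ppm1l, a phosphatase gene (0.95), and Lig4, a DNA ligase gene (0.95). For Sox13 they were Bmp7, a BMP ligand gene (0.96), Dhrs3, a retinaldehyde reductase gene (0.96), Blk (0.95), Niban1 (0.93) and Rfx7 (0.92). The 7 points share a platform and a sort, and these genes were picked as the highest of 2552, so the values only describe these arrays. Over the 13 arrays as labelled, r with Sox13 was 0.32 for Bmp7, -0.82 for Dhrs3, 0.99 for Blk, 0.98 for Niban1 and 0.60 for Rfx7. Those values include the gap between V2 and DP cells, so they do not show whether the likeness within V2 holds.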

How the data were processed

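RNA of sorted thymocytes was labelled with a whole-transcript kit and hybridised to 1 Affymetrix array per sample, per the labels' protocols. The authors deposited 1 intensity per probe set. Per the submitters' processing notes these come from RMA and Affymetrix Power Tools, of which no version is named in the sources used here. Values from 6.16 to 23800 show a linear scale, and log2 was taken here. Of 24922 probe sets 21425 had 1 symbol in the platform annotation, 1399 several and 2098 none; each of 19752 genes was read from its probe set of highest mean, with 921 genes having more than 1.

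Groups came from titles. limma 3.58.1 (R 4.3.3; lmFit, then eBayes with trend) was run on 11 arrays together with a mean for each of 4 groups and a term for title set (0.5 or -0.5 in V2), with Benjamini-Hochberg adjustment over all genes, two-sided, at 0.05. The 2 arrays left out carry markers of the other population, and fits of all 13 arrays are given beside. Named genes were the 6 members, up to 3 called genes per list and comparison, and the 5 genes most like Sox4 and Sox13; in addition Il17re, Blk, Lef1, Cd24a, Cd74, Xist and Eif2s3y were named after their values were seen. Members and lists were chosen with earlier results of these data known. Figures used matplotlib 3.10.9 in Python 3.11.15, and sequences are from RefSeq (GRCm38.p6).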

Additional observations from a re-analysis of the deposited data

Results flagged for a closer look

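Of 12 member groups of 4 arrays tested for a value far from the other 3, 4 held one. Chance flags about 1 in 20 independent groups, but these groups share arrays and 2 of the 4 values are from an array already shown apart, so the count is not read against that share. Sox4 at 9.60 in V2 cKO replicate 5 (V2imm) stood apart from the other V2 cKO arrays. With the 13 arrays as labelled, Sox13 at 7.73 and Sox5 at 6.74 in the array labelled V2 WT replicate 5 (immV2) stood below the other V2 WT arrays, and Sox11 at 5.85 in V2 WT replicate 5 (V2imm) stood above them. The array labelled DP cKO replicate 5, which the comparisons over 11 arrays leave out, read above every DP array kept for Sox12 (7.59), Sox13 (11.49) and Sox5 (8.10).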

How the results depend on the processing

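Depth does not apply to arrays, and signal over background was not available for any probe set. Readings not shown to be above background may therefore understate differences. These are Sox11, Sox6, Sox13 in DP, and Sox5 and Sox12 in DP and in V2 cKO. Sox4 in V2 cKO belongs with them, except in replicate 5 (V2imm), where it read 9.60. Sox13 was called higher in V2 WT than in DP WT in every alternative except the 13 arrays as labelled, as was Sox5. With those 13 arrays the number of members called was 0 for V2 WT against DP WT and 0 for V2 cKO against DP cKO. With 1 array left out it ran from 2 to 3 and from 1 to 3, and was 0 in the other comparisons. For V2 cKO against DP cKO it was 2 with the title set coded 1 and 0, with robust moderation or with genes of mean log2 of at least 6, and 3 with quantile normalization or array weights. For V2 cKO against V2 WT it was 3 with array weights and 1 with a replicate block, which called 34 genes, Sox13 among them (-1.19, adjusted p = 0.0177 with limma). Same-numbered arrays of a title set were not taken as pairs, since the labels do not tie replicates to separate animals. Their deviations from the group mean correlated from -0.11 to 0.52 over 4 pairs, and V2 arrays did not all correlate best with their own number. These deviations also hold the title set difference in V2, and with 2 arrays per DP group the DP values differ in sign alone. The correlations thus cannot decide whether the numbers mark pairs. The cause of the changes in calls was not tested. Over the alternatives, genes called ran from 0 to 2680 for V2 cKO against V2 WT, from 0 to 29 for DP cKO against DP WT and from 0 to 48 for the difference of effects. They ran from 11 to 2320 for V2 WT against DP WT and from 7 to 2253 for V2 cKO against DP cKO.

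Other changes of sign were in members not called. For V2 cKO against V2 WT, Sox4 was 0.16 and Sox11 0.032 with V2imm only, Sox11 was 0.017 with the replicate block, and Sox6 was -5.36e-04 with no title set term and -0.13 with array weights. For the difference of effects, Sox4 was 0.41 with V2imm only and 0.22 with the block, and Sox6 -0.052 with array weights. For V2 WT against DP WT, Sox4 was -0.10 with 13 arrays, -0.28 with V2imm only and -0.039 with quantile normalization, and Sox6 was 0.014 with no title set term, 0.049 with V2imm only, 0.11 with the other coding and 0.0045 with array weights. For V2 cKO against DP cKO, Sox4 was 0.13 and Sox11 0.091 with V2imm only, Sox11 was 0.063 with the other coding, and Sox6 -0.047 with array weights. With 1 array left out, the V2 cKO against V2 WT values ran from -1.06 to 0.16 for Sox4, -0.11 to 0.035 for Sox11 and -0.14 to 0.18 for Sox6. Those for DP cKO against DP WT ran from -0.66 to 0.16 for Sox4 and -0.039 to 0.32 for Sox5, and those of the difference from -0.81 to 0.41 for Sox4 and -0.056 to 0.26 for Sox6. For V2 WT against DP WT they ran from -0.61 to 0.47 for Sox4 and -0.17 to 0.023 for Sox6, and for V2 cKO against DP cKO from -0.12 to 0.0047 for Sox11 and -0.061 to 0.20 for Sox6. Sox11 has no value with the filter on low values, which removes it.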
